A study of Mus musculus with 28 samples.

Results

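The promoter contacts described here are the 73078 pairs of HindIII fragments that were listed as significant Promoter Capture Hi-C (PCHi-C) interactions both at 1h and at 48h of trans-differentiation, each unordered pair taken once. They were chosen for being in both lists, whatever the difference between their values, and make up 53.0% of the 137836 pairs listed at 1h, 50.7% of the 144072 pairs listed at 48h and a part of the 273644 pairs listed at any of the 4 time points. Being listed itself depends on the values. The median value of shared pairs was 20 at 1h and 18 at 48h, against 13 at both times for pairs not shared. The study follows C10 cells, a single mouse Pre-B cell line derived from HAFTL cells, which carries a transgene for rat C/EBPα fused to the hormone-binding domain of the estrogen receptor. All samples carry this transgene. The 1h and 48h samples were both treated with 100 nM β-estradiol together with IL-3 and CSF-1 and differ in the hours of treatment, and at each time point 2 PCHi-C replicates were merged by the authors into 1 list, while RNA-seq has 3 replicates at each time point.

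PCHi-C enriches a proximity-ligation library for fragments that hold promoters (the baits), so that each read pair joins a promoter to another fragment that lay close to it in the nucleus. The far fragment can hold an enhancer, a silencer, another promoter or none of these. C/EBPα is a transcription factor of the myeloid lineage, and its activation in B cell progenitors turns off B cell genes and turns on those of macrophages. The question addressed here was how the number of read pairs of a contact that was present at both ends of the conversion differed between them, and how this compared with the RNA of the genes at the bait.

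The read pairs of the shared contacts summed to 2212239 at 1h and 2143641 at 48h, and each value at 48h was brought to the 1h total by the factor 1.03 before a log2 ratio of 48h over 1h was taken. Because there is 1 merged list per time point, no replicate error exists for contacts, and no test was made. Intervals given for contacts are exact (Clopper-Pearson) 95% intervals of the counts, which cover counting error only. The shared contacts involved 12247 baits, of which 12034 held a start site of an annotated transcript, and 13088 pairs (17.9%) joined a pair of baits. Their median distance was 165.6 kb, with quartiles at 89.2 and 271.4 kb, and 406 pairs joined different chromosomes. Of the shared pairs, 79.0% were also listed at 12h and 66.1% at all 4 time points. RNA of the markers for the starting cells, the product and other cell types followed the labels: the summed level of 12 Pre-B markers was between 215 and 234 TPM at 1h and between 30.7 and 42.9 TPM at 48h, that of 12 macrophage markers was between 17.6 and 22.9 TPM at 1h and between 772 and 893 TPM at 48h, 6 granulocyte markers together reached at most 2.93 TPM, 4 T cell markers at most 0.18 TPM, 4 erythroid markers at most 0.09 TPM, and 5 stromal markers were listed at 0 in the 6 libraries. The macrophage markers Adgre1, Msr1 and Tyrobp were listed at 0 in all 3 libraries of 1h, and the Pre-B marker Rag1 in all 3 of 48h. Not every marker moved with its sum. By the RNA comparison described below, 7 of the 12 Pre-B markers were called lower and 1, Cd79b, higher. The study instead lists Cd79b among B cell genes that were downregulated, over a course that starts at 0h rather than 1h. Of the 12 macrophage markers 11 were called higher, and Mmp12 alone had a mean of 491 TPM at 48h. Over all genes tested 38.3% were called lower and 6.91% higher.

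The contacts that were higher at 48h tended to lie in DNA poorer in G and C, and those that were lower in DNA richer in them. The 6 stretches below illustrate this tendency. They are the middle 150 bases of the far fragments of the pairs with most read pairs among those that were more than 2-fold higher in the decile of pairs lowest in GC content and more than 2-fold lower in the decile highest in GC content, outside exons and with each bait used once. They were chosen by their values, to illustrate the difference. The higher pairs span 9.6 kb (Rpl15-ps2), 5.6 kb (Tmem52b) and 4.3 kb (Olfr700). The lower pairs span 85.7 kb (Nyap1), 73.7 kb (Tcf3) and 59.9 kb (Nxnl1 and Slc27a1). GC content and distance thus differ together in these examples, and their parts cannot be told apart there. Each is named by the gene that starts in the bait, is written on the plus strand of GRCm38.p6, and has CG dinucleotides in capitals.
Rpl15-ps2, far fragment, chr9:72047279-72047428, in an intron of Tcf12: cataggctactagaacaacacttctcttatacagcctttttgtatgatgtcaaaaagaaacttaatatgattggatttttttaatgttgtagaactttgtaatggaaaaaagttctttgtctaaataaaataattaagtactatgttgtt
Tmem52b, far fragment, chr6:129508316-129508465, between genes: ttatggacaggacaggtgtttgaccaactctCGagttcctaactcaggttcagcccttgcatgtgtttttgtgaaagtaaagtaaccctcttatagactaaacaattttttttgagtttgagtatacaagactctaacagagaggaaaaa
Olfr700, far fragment, chr7:106809135-106809284, between genes: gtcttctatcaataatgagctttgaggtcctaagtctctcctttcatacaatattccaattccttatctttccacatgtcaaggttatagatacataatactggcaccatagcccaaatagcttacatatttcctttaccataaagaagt
Nyap1, far fragment, chr5:137648837-137648986, between genes: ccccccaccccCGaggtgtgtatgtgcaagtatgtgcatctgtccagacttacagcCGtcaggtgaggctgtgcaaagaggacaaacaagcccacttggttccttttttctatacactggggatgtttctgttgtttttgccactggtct
Tcf3, far fragment, chr10:80507719-80507868, in an intron of Onecut3: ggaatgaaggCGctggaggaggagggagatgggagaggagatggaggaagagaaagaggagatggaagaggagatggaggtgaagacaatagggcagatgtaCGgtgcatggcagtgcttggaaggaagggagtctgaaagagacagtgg
Nxnl1 and Slc27a1, far fragment, chr8:71631123-71631272, in an intron of Unc13a: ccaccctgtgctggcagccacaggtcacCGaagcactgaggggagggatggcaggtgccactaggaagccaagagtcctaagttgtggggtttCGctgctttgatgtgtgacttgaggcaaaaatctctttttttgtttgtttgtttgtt

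The stretch paired with the Rpl15-ps2 bait has a GC content of 26.0% and no CG, and its pair had 190 read pairs at 1h, 216 at 12h and 535 at 48h, a log2 ratio of 1.54 (interval 1.30 to 1.79). The pairs of Tmem52b (220, 249 and 504 read pairs at 1h, 12h and 48h) and of the olfactory receptor gene Olfr700 (198, 258 and 483 read pairs) likewise had most read pairs at 48h, and their stretches have GC contents of 37.3% and 34.7%. The stretch paired with the bait of Tcf3, which encodes the E2A proteins needed for B cell development, has a GC content of 54.0%, and its pair had 67 read pairs at 1h, 52 at 12h and 32 at 48h (log2 ratio -1.02, interval -1.68 to -0.39). The Nyap1 pair had 78, 44 and 32 read pairs and the Nxnl1 and Slc27a1 pair 58, 46 and 28, each with a stretch of 50.7% GC. In all 6 pairs the count at 12h lay between those at 1h and 48h, an order favoured by the choice of pairs that differ most between these times.

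Over all shared pairs the change followed base composition step by step. The pairs were placed in 10 groups of equal size by the mean GC content of both fragments. In the group lowest in GC, with a median of 39.8%, the share of all read pairs was 9.07% at 1h and 11.4% at 48h (log2 ratio of shares 0.33, interval 0.32 to 0.34). In the group highest in GC, with a median of 53.5%, the share was 12.1% at 1h and 10.0% at 48h (log2 ratio -0.28, interval -0.28 to -0.27). Each of the 8 groups between them had a lower ratio than the group below it in GC content. Among the pairs listed at 1h, 12h and 48h, the lowest group held 8.81% of read pairs at 1h, 9.53% at 12h and 11.2% at 48h, and the highest held 12.6%, 11.8% and 10.4%, so the 12h list lay between the others in both. Across 65270 pairs within chromosomes with at least 20 read pairs, Spearman's correlation of the log2 ratio with GC content was -0.31. This describes pairs that share baits and 2 merged libraries, so no p-value is given. Any difference between the lists in how fragments of different base composition were recovered cannot be told apart from the time point, with 1 list for each, and its part in the result was not tested.

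**Figure D1:**
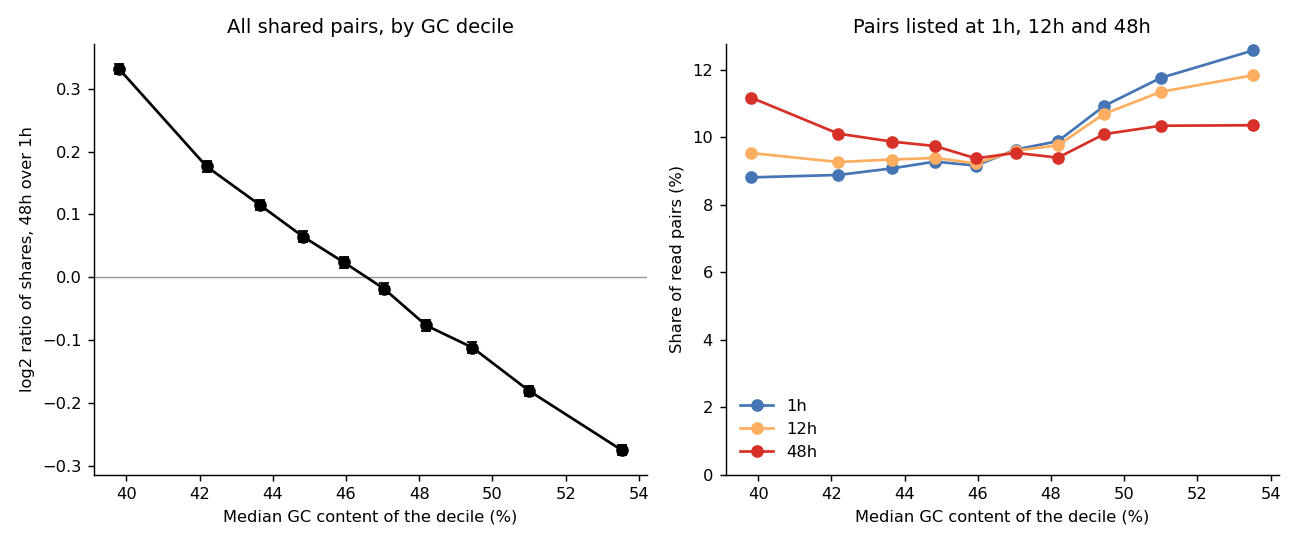
Left, log2 ratio of shares of read pairs, 48h over 1h, for 10 groups of shared pairs against the median GC content of each group (percent), with exact 95% counting intervals. Right, share of read pairs (percent) held by the same groups at 1h, 12h and 48h, for pairs listed at all these times. The ratio falls from 0.33 in the group lowest in GC to -0.28 in the highest.

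The same order was seen within distances. Among pairs under 25 kb the log2 ratio of sums was 0.44 in the quintile lowest in GC and -0.08 in the quintile highest in GC, among pairs of 100-200 kb it was 0.13 and -0.32, and among pairs of 200-500 kb it was 0.07 and -0.41. GC-rich regions of the mouse genome hold more genes, and the change followed gene density as well. In the decile of pairs with fewest protein-coding start sites within 500 kb (median 4.5) the log2 ratio of shares was 0.19, and in the decile with most (median 49) it was -0.20. By chromosome, the share of contacts was lower at 48h on chromosomes 17 (log2 ratio -0.13) and 19 (-0.11), and higher on chromosomes 13 (0.15) and X (0.16). The median GC content of the pairs was 48.3% on chromosome 17, 47.0% on chromosome 19, 45.6% on chromosome 13 and 43.3% on chromosome X. Chromosome Y had the highest ratio, 0.50, but from 11 pairs.

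Distance also separated the contacts. Pairs under 25 kb held 26.5% of read pairs at 1h and 30.3% at 48h (log2 ratio of shares 0.19, interval 0.19 to 0.20). The share of pairs of 100-200 kb was 23.9% at 1h and 22.0% at 48h (log2 ratio -0.12), and that of pairs of 200-500 kb was 18.9% and 17.0% (log2 ratio -0.15, interval -0.16 to -0.14). The few contacts of longer range were higher at 48h: the log2 ratio was 0.09 (interval 0.04 to 0.15) for 1-2 Mb, 0.27 (interval 0.10 to 0.43) for the 84 pairs over 2 Mb and 0.23 (interval 0.17 to 0.30) for the 406 pairs between chromosomes. When the totals of the whole lists set the scale, the ratio at 25-50 kb went from 0.03 to -0.060 and that at 1-2 Mb from 0.09 to a value next to 0, -0.00087.

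**Figure D2:**
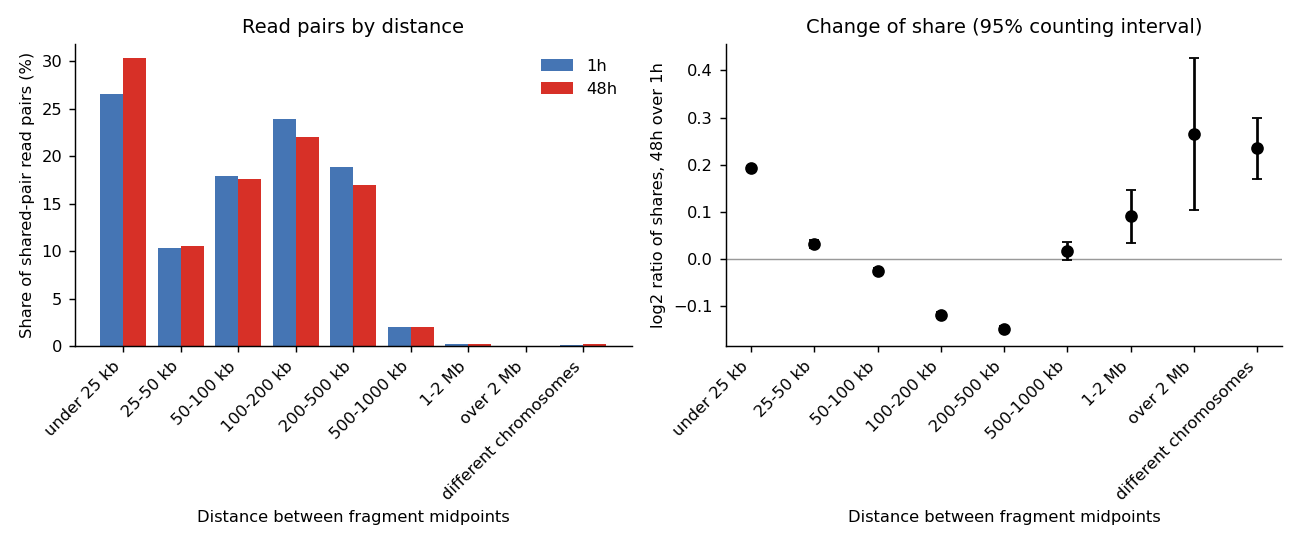
Left, share of the read pairs of shared contacts (percent) in each distance band at 1h and 48h. Right, log2 ratio of these shares, 48h over 1h, with exact 95% counting intervals. The share under 25 kb is higher at 48h (30.3% against 26.5%), and the shares between 50 and 500 kb are lower.

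Of the 73078 shared pairs, 65364 had at least 20 read pairs over both lists and were compared by themselves. Their median log2 ratio was -0.12, with 5% of pairs under -0.96 and 5% above 0.77. More than 2-fold higher at 48h were 1363 pairs (2.09% of those compared), and more than 2-fold lower were 2640 (4.04%). This balance depended on the centre: with the ratios centred on the median pair, 2259 pairs were higher and 1439 lower. Counting error reaches far at these depths, and the interval lay above 0 for 3769 pairs and below 0 for 3240. Contacts between a pair of baits had a median of -0.30, with 1003 of 11638 (8.62%) more than 2-fold lower and 126 (1.08%) higher, whereas contacts of a bait with another fragment had a median of -0.08, with 1637 of 53726 (3.05%) lower and 1237 (2.30%) higher.

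Among the 8493 pairs with at least 100 read pairs, the largest increase was in the contact of Gm26352 with a fragment in Tpp2, the gene of tripeptidyl peptidase II, 47.1 kb away, which had 22 read pairs at 1h, 27 at 12h and 92 at 48h (log2 ratio 2.11, interval 1.43 to 2.85). The bait of Mmp13, which encodes a collagenase of the matrix metalloproteinase family, contacted a fragment between genes 52.4 kb away with 31, 39 and 121 read pairs (log2 ratio 2.01, interval 1.43 to 2.63). The bait of Elovl4, a fatty acid elongase gene, had 34, 53 and 132 read pairs with a fragment between genes 98.7 kb away (log2 ratio 2.00). The Hao1 pair, described with its bait below, and a contact between the zinc finger genes Zfp429 and Zfp459 with 44 read pairs at 1h and 160 at 48h followed, the latter between members of a gene family with similar copies, where reads may be shared.
The largest decrease was in the contact of the bait of Nup98 and Pgap2 with the promoter of Rrm1, the large subunit of ribonucleotide reductase that supplies deoxynucleotides for DNA replication, 235.4 kb away. It had 88 read pairs at 1h, 37 at 12h and 21 at 48h (log2 ratio -2.02, interval -2.78 to -1.32). The contact of 1700028I16Rik with a fragment in Txnrd1 had 108, 62 and 38 read pairs (log2 ratio -1.46). That of Nfkbid, an atypical inhibitor of NF-κB, with a fragment 38.6 kb away had 79, 46 and 30 (log2 ratio -1.35). The bait of Elane, the gene of neutrophil elastase, and that of Nyap1 had log2 ratios of -1.28 and -1.24. Counts at 12h lay between those of 1h and 48h for each of the 9 of these 10 pairs that were listed at 12h. Since the pairs were chosen as the extremes of 48h over 1h, this order says little about the course of the change.

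For the bait as a whole, the read pairs of all its shared contacts were summed, and the 6937 baits with at least 3 shared pairs and 100 read pairs were compared. A contact that joins a pair of baits was counted for both, so baits are not independent of each other. They had a median of 227 read pairs at 1h and 211 at 48h. Their log2 ratios ran from -1.23 to 1.64 with a median of -0.10 and quartiles of -0.34 and 0.17. Past 1.5-fold, 328 baits (4.73%) were higher at 48h and 540 (7.78%) lower. Centred on the median pair these were 582 and 225, with the scale set by the whole lists 212 and 892, and without pairs of baits 249 and 306. Without the largest pair of each bait 176 were higher and 521 lower, so the balance between higher and lower baits differed between these settings. Higher baits had a median GC content of 44.0% and a median of 10 protein-coding start sites within 500 kb, lower baits 51.4% and 28, and all compared baits 48.1% and 17. With each value scaled within its GC decile, an alternative chosen after seeing the data, 196 of the 328 higher baits and 241 of the 540 lower baits were still past 1.5-fold.

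The bait with the largest increase among those with at least 5 shared pairs and 200 read pairs held the start of Hao1, which encodes a hydroxyacid oxidase of liver peroxisomes (chr2:134548949-134554672). Its 11 contacts summed to 176 read pairs at 1h and 476 at 48h (log2 ratio 1.48, interval 1.23 to 1.74), and all 11 were higher at 48h. Next came the bait of the amylase gene Amy2a1 (296 and 718 read pairs, log2 ratio 1.32), which lies in a cluster of similar copies, and that of Cxcl3 (chr5:90783728-90787929), a chemokine that attracts neutrophils, with 217 and 519 read pairs (log2 ratio 1.30, interval 1.07 to 1.54). All 8 contacts of the Cxcl3 bait were higher. None of these genes was expressed at a level that passed the filter: Hao1, Amy2a1 and Cxcl3 were listed at 0 TPM in the 3 libraries of 1h and reached at most 0.03, 0 and 0.10 TPM at 48h.
Of the other 7, the aldehyde oxidase gene Aox1 (log2 ratio 1.11) and Prrg3 (1.07) also had at most 0.04 TPM in any library. Pmpcb (1.23), a mitochondrial processing peptidase, had 10.1, 5.96 and 5.81 TPM at 1h and 3.25, 2.92 and 1.87 TPM at 48h, so its RNA was lower (log2 fold change -1.40, adjusted p = 0.0028 by limma, and -0.35 with adjusted p = 0.38 after median-of-ratios scaling) while its contacts were higher. Atf7ip (1.09), a cofactor of the histone methyltransferase SETDB1, had 10.3, 9.62 and 5.43 TPM at 1h and 13.7, 17.2 and 16.5 TPM at 48h, 2 groups that do not overlap. Gbp2 (1.09), a guanylate-binding protein induced by interferon, is described with its list below. The bait of the pseudogene Rpl15-ps2 (1.09) had the most read pairs of the 10, 707 at 1h and 1458 at 48h, and that of Msra (1.15), methionine sulfoxide reductase A, had 74 and 159.

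Under the same minimum counts, the largest decrease was at the bait of Dus1l, a tRNA dihydrouridine synthase gene (chr11:120792520-120798494), with 143 read pairs at 1h and 60 at 48h (log2 ratio -1.21, interval -1.67 to -0.76). None of its 5 contacts was higher at 48h, and its RNA was 7.37, 5.07 and 6.65 TPM at 1h and 0.75, 1.52 and 1.61 TPM at 48h, all lower. Matr3, a nuclear matrix protein gene, followed with 180 and 77 read pairs (log2 ratio -1.18) and RNA of 23.8 ± 4.67 TPM at 1h and 5.35 ± 0.445 TPM at 48h (SD, n = 3). The sodium channel gene Scnn1g (-1.18) was listed at 0 TPM in the 6 libraries, so a bait without RNA was found at this end too. Irf2bp1 (-1.14) and the neighbouring bait of Sympk and Rsph6a (-1.11), both on chromosome 7, had 413 and 181, and 245 and 110 read pairs. Irf2bp1 encodes a corepressor of IRF2 and Sympk a scaffold of the RNA 3′ end machinery.
The bait of Eif4a1 and Senp3 had 183 read pairs at 1h and 83 at 48h (log2 ratio -1.10), and the RNA of Eif4a1, the helicase of translation initiation, was 91.1, 93.8 and 78.8 TPM at 1h and 16.2, 19.7 and 21.8 TPM at 48h. The bait of Wdr18, Tmem259 and Grin3b had a log2 ratio of -1.06. The bait of Map3k14, the NF-κB-inducing kinase, had one of -1.03, that of the calmodulin gene Calm3 one of -1.01 from 733 and 352 read pairs over 14 contacts, and that of Tbrg4 one of -1.01. RNA log2 fold changes (in brackets after median-of-ratios scaling) were -2.73 (-1.81) for Irf2bp1, -1.58 (-0.53) for Sympk, -2.52 (-1.50) for Wdr18 and -2.50 (-1.44) for Tbrg4. For Calm3 they were -1.04 (0.031), for Tmem259 -0.83 (0.23) and for Map3k14 0.46 (1.42), so RNA was not lower at every one of these baits. No contact of these 10 baits was higher at 48h than at 1h after scaling. The GC content of the 10 lower baits was between 47.8% and 58.7%, and that of the 10 higher baits between 35.9% and 50.3%.

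**Figure D3:**
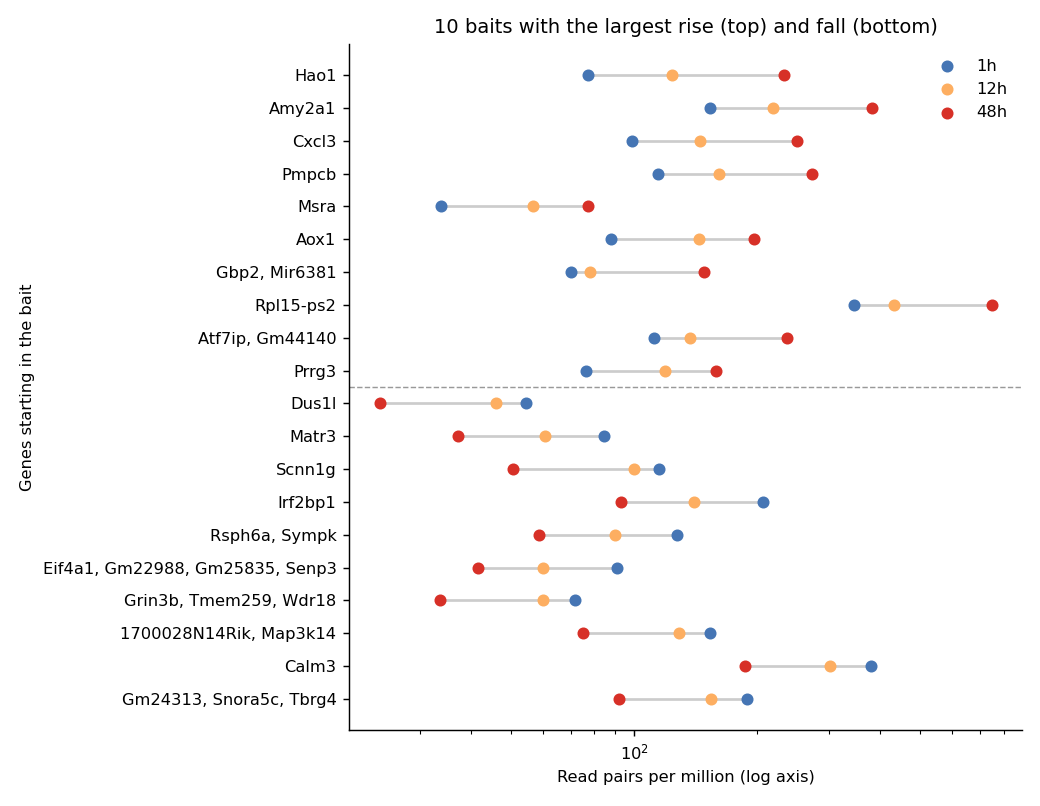
Read pairs scaled to a total of 1e6 over all pairs listed at these times (log axis) at 1h, 12h and 48h for the 10 baits with the largest increase (above the dashed line) and the 10 with the largest decrease (below it), summed over the contacts of each bait that were listed at all 3 times. In all 20 baits the value at 12h lies between those at 1h and 48h, as for Hao1 (77.3, 124 and 232) and Calm3 (380, 301 and 187). The baits were chosen as the extremes of 48h over 1h, a choice that favours this order.

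The contacts within chromosomes were also summed in windows of 1 Mb by their midpoints, an addition made after the values were seen. Of 874 windows with at least 20 pairs and 1000 read pairs, 90% lay between log2 ratios of -0.35 and 0.46, and Spearman's correlation of the ratio with the median GC content was -0.62. The highest was on chromosome 6 from 40000001 to 41000000 (log2 ratio 0.94, or 0.67 within GC deciles). It holds Ssbp1, which the study names for its contacts, and Clec5a, a myeloid lectin receptor, among genes for taste receptors and serine proteases. Then came the window of Sprr and Lce genes of the epidermal differentiation complex on chromosome 3 (0.83, or 0.50 within GC deciles) and a window of chromosome 6 with killer cell lectin-like and taste receptor genes (0.83). A window on chromosome 7 with olfactory receptor genes had 0.71 from 64 contacts (0.39 within GC deciles), and the chromosome 5 window of Alb, Afp and the Cxcl chemokines had 0.63 from 104 contacts. The lowest was on chromosome 9 from 45000001 to 46000000 (-0.59, interval -0.76 to -0.42, or -0.43 within GC deciles), with Cd3e, Il10ra and Sidt2. The lowest windows included that of chromosome 19 around Clcf1 with 49 protein-coding start sites (-0.50, from 7050 read pairs at 1h and 4846 at 48h) and that of chromosome 10 around Tcf3 and Stk11 with 53 (-0.47). Within GC deciles these were -0.28 and -0.23. The median GC content was between 39.2% and 47.2% in the 12 highest windows and between 47.3% and 53.7% in the 12 lowest.

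RNA was compared with limma on log2(TPM + 0.1), with p-values adjusted by the Benjamini-Hochberg method over the 16415 genes tested. A gene was called when adjusted p was under 0.05 and the log2 fold change beyond 1. Between 1h and 48h, 1134 genes (6.91%) were higher and 6288 (38.3%) lower in TPM as deposited, where the median gene changed by -0.88. After median-of-ratios scaling of the libraries, which sets that median to 0, 2551 of 16212 genes (15.7%) were higher and 2440 (15.1%) lower. RNA changes are given in TPM as deposited, followed by the scaled value where one is stated. In bulk cultures a change of RNA per cell and a change in the share of cells cannot be told apart.

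Among the shared contacts, contact change and RNA change showed little relation in their medians and rank correlation. The share of baits past 1.5-fold higher in contacts was larger with higher RNA than with lower RNA. The study reports that RNA rose at promoters with increased contacts and fell at those with decreased contacts, relative to uninduced cells. It used significantly different interactions, and contacts gained or lost entirely are left out here, so its relation was not tested. The 422 baits with a gene higher in RNA had a median contact log2 ratio of -0.11 (quartiles -0.36 and 0.18), the 2505 baits with a lower gene -0.12 (quartiles -0.37 and 0.12), and the 2071 baits whose tested genes were not called -0.09 (quartiles -0.34 and 0.18). Past 1.5-fold higher in contacts were 6.16% of the first, 3.75% of the second and 4.64% of the third, and past 1.5-fold lower were 8.53%, 8.66% and 7.19%. On the scaled RNA values these were 5.31%, 2.94% and 4.45% for higher contacts and 7.91%, 9.88% and 7.50% for lower contacts. Spearman's correlation over 6454 combinations of gene and bait was 0.03, a description without a p-value since genes share baits. The median contact ratio was -0.11 for genes with a scaled RNA log2 fold change above 4 and -0.04 for those below -4. With contacts scaled within GC deciles, the medians of the 3 classes were -0.09, -0.08 and -0.07. In that scaling, 3.08% of baits with a higher gene and 2.99% of those with a lower gene were past 1.5-fold higher.

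**Figure D4:**
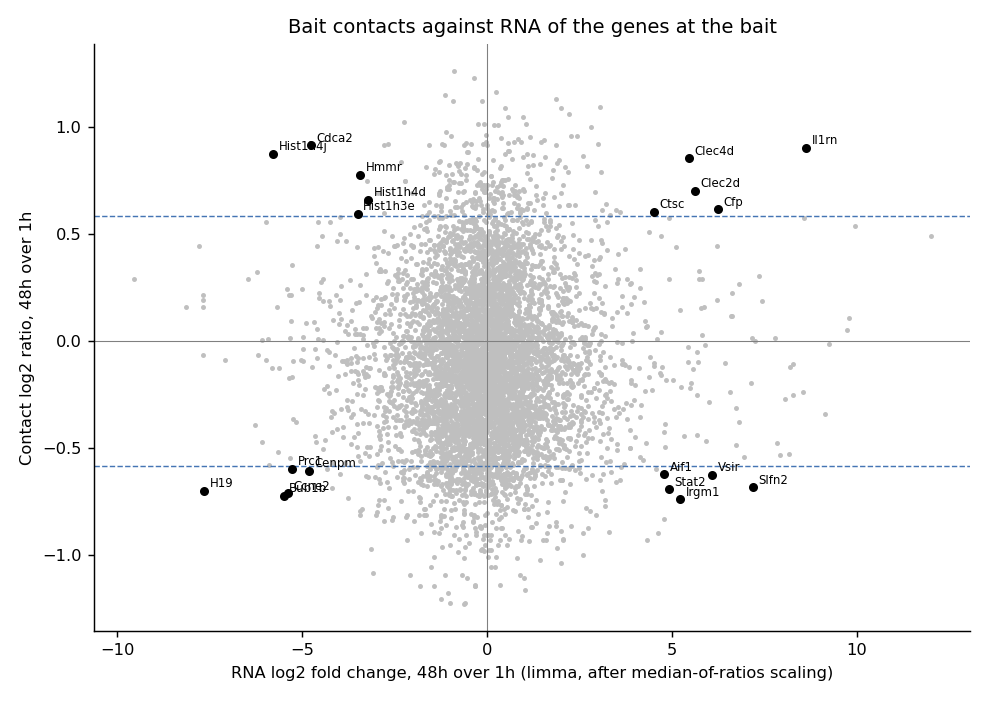
Contact log2 ratio of baits, 48h over 1h, against the RNA log2 fold change of the genes at the bait after median-of-ratios scaling (limma), 1 grey point for each gene and bait. Dashed lines mark 1.5-fold, and black points, placed at the ratio summed over the baits of a gene, are the named genes with contacts past it and the largest RNA changes. Named genes were picked at both ends of RNA change in each direction of contact, so all 4 corners hold some by that choice. Examples are contacts higher with RNA higher (Il1rn), higher with lower (Cdca2), lower with higher (Slfn2) and lower with lower (H19).

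Seen from the contacts, 257 of the 6192 tested genes with compared contacts were past 1.5-fold higher (4.15%) and 509 lower (8.22%), with the pairs of all baits of a gene summed. Of the 257, 27 (10.5%) were called higher in RNA and 104 (40.5%) lower. Of the 509, 37 (7.27%) were higher and 233 (45.8%) lower, and over all 6192 genes 7.36% were higher and 44.7% lower. After scaling of the RNA, 20.6% and 14.0% of the genes with higher contacts were called higher and lower, 15.9% and 20.2% of those with lower contacts, and 16.7% and 18.3% of all. Base composition moved with these calls too: of the 33 genes named below for any reason with contacts past 1.5-fold, 12 were still past it within GC deciles, and none had the other sign. The 12 were Aurkb, Bub1b, Cdca2, Clec4d, Gbp2, Gbp3, Hist1h4j, Hmmr, Il1rn, Irgm1, Slfn2 and Wapl.

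The genes with higher contacts and the largest increases in RNA were Il1rn, Cfp, Clec4d, Clec2d and Ctsc. Il1rn, the secreted antagonist of the interleukin 1 receptor (chromosome 2), had 0.83, 0.66 and 0.42 TPM at 1h and 136, 159 and 135 TPM at 48h (log2 fold change 7.64 ± 0.25 (SE), adjusted p = 2.5e-09 by limma, scaled 8.62). Its 5 contacts summed to 154 read pairs at 1h and 279 at 48h (contact log2 ratio 0.90, interval 0.61 to 1.20), but only 3 of them were higher. Cfp, the gene of properdin, which stabilizes the alternative complement pathway, had 0.56, 0.48 and 0.42 TPM at 1h and 20.5, 18.4 and 30.8 TPM at 48h, and all 7 of its contacts were higher (180 and 267 read pairs, contact log2 ratio 0.61). Clec4d, a C-type lectin that senses mycobacterial lipids, had at most 0.18 TPM at 1h and between 3.81 and 5.47 TPM at 48h, and 48 and 84 read pairs (contact log2 ratio 0.85, interval 0.32 to 1.40). Clec2d, a lectin that is a ligand of a natural killer cell receptor, had a contact ratio of 0.70 from 47 and 74 read pairs. Ctsc, the cathepsin that activates granule serine proteases, had 33.0 ± 3.66 TPM at 1h and 359 ± 30.6 TPM at 48h (SD, n = 3) and a contact ratio of 0.60, which was 0.33 within GC deciles.

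In the opposite corner, genes with higher contacts and the largest decreases in RNA were Cdca2, Hmmr and 3 histone genes. Cdca2, which recruits a phosphatase to mitotic chromosomes, had 6, 4.72 and 4.45 TPM at 1h and 0, 0.05 and 0.02 TPM at 48h, whereas its 3 contacts had 224 read pairs at 1h and 409 at 48h (contact log2 ratio 0.91, interval 0.68 to 1.16). Hmmr, a spindle and hyaluronan-binding protein, had 4.15 ± 0.90 TPM at 1h and 0.12 ± 0.046 TPM at 48h (SD, n = 3), and all 8 of its contacts were higher (306 and 508 read pairs, contact log2 ratio 0.78). Hist1h4j, Hist1h4d and Hist1h3e, replication-dependent histone genes of the cluster on chromosome 13, had contact ratios of 0.87, 0.66 and 0.59 and RNA log2 fold changes of -6.74, -4.27 and -4.55 (scaled -5.78, -3.21 and -3.49), which are uncertain since histone genes have near-identical copies that can split reads. The contacts of Hist1h3e had a ratio of 0.31 within GC deciles.

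Genes with lower contacts and the largest increases in RNA were Slfn2, Vsir, Irgm1, Aif1 and Stat2. Slfn2, a schlafen gene of leukocytes, had 0, 0.47 and 0.17 TPM at 1h and 17.9, 20.98 and 25.8 TPM at 48h, with 73 and 44 read pairs (contact log2 ratio -0.68, interval -1.26 to -0.13). Irgm1, an immunity-related GTPase, had 1.14, 1.54 and 1.26 TPM at 1h and 23.0, 27.0 and 27.7 TPM at 48h (log2 fold change 4.21 ± 0.21 (SE), adjusted p = 3.6e-08 by limma, scaled 5.23), while 32 of its 34 contacts were lower (664 and 385 read pairs, contact log2 ratio -0.74, interval -0.93 to -0.56). Stat2, a transducer of type I interferon signals, had 3.67 ± 0.97 TPM at 1h and 54.0 ± 10.1 TPM at 48h (SD, n = 3) and none of 5 contacts higher (304 and 182 read pairs, contact log2 ratio -0.69), a ratio of -0.42 within GC deciles. Vsir, the checkpoint ligand VISTA, and Aif1, an actin-binding protein of macrophages, had contact ratios of -0.63 and -0.62. The summed contacts of these 5 genes had fewer read pairs at 48h, when their RNA was more than 10-fold higher in mean TPM.

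Genes with lower contacts and the largest decreases in RNA were led by H19, an imprinted noncoding RNA. It had 347, 339 and 304 TPM at 1h and 0.94, 0.52 and 0.74 TPM at 48h (log2 fold change -8.66 ± 0.20 (SE), adjusted p = 2.7e-10 by limma, scaled -7.64). Its 17 contacts, none of them higher, had 671 read pairs at 1h and 400 at 48h (contact log2 ratio -0.70, interval -0.88 to -0.52), with a ratio of -0.48 within GC deciles. The spindle checkpoint kinase gene Bub1b had 16.1 ± 1.93 TPM at 1h and 0.11 ± 0.080 TPM at 48h (SD, n = 3) and 13 contacts that were all lower (542 and 318 read pairs, contact log2 ratio -0.72). Ccne2, cyclin E2 of the entry into S phase, had 88 and 52 read pairs (-0.71), Prc1, a bundler of the central spindle, 139 and 89 (-0.60), and the centromere gene Cenpm 118 and 75 (-0.61).

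The macrophage list had a higher median contact ratio than the other 7 lists as scaled here, but not within GC deciles, where its median was 0.09 and those of the Pre-B and interferon gamma lists were both 0.11. Of its 48 genes, 43 were tested for RNA and 38 were called higher (42 after scaling) and none lower. Over all genes tested, 6.91% were called higher and 38.3% lower (15.7% and 15.1% after scaling). The calls of this and the later lists stand beside these shares. Contacts could be compared for 22, with a median log2 ratio of 0.16 beside -0.11 for all 6192 genes, and 14 of the 22 were above 0, as were 2326 of the 6192. Without the largest pair of each gene the median was -0.03, beside -0.17 for all, 0.04 for the interferon gamma list and 0.0078 for the Pre-B list. Past 1.5-fold were Il1rn, Clec4d and Ctsc on the higher side and on the lower side Ncf1, the p47phox subunit of the NADPH oxidase (578 and 370 read pairs over 21 contacts, contact log2 ratio -0.60), whose RNA was 6.30, 5.27 and 4.61 TPM at 1h and 11, 11.7 and 13.5 TPM at 48h. The costimulatory ligand gene Cd80 had a contact ratio of 0.57. At the other end were Itgam, the integrin CD11b of myeloid cells (-0.38), the urokinase receptor gene Plaur (-0.36) and the Fc receptor gene Fcgr4 (-0.31), all 3 with RNA called higher.

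The Pre-B cell list was mostly lower in RNA, and its contact ratios lay on both sides of 0. Of 39 genes, 36 were tested and 21 were lower in RNA and 1 higher, Cd79b (19 and 3 after scaling), while the 28 genes with compared contacts had a median contact ratio of 0.05, with 17 above 0. Vpreb1 and Igll1 have identical contact values (62 and 56 read pairs) but are counted separately among the 28. Pax5, the transcription factor that holds B cell identity (chromosome 4), had 10.5, 10.0 and 8.81 TPM at 1h and 2.83, 3.85 and 4.50 TPM at 48h (log2 fold change -1.39 ± 0.18 (SE), adjusted p = 5.7e-05 by limma, but -0.33 with adjusted p = 0.086 after scaling). Its 11 contacts, 7 of them higher, had 241 read pairs at 1h and 359 at 48h (contact log2 ratio 0.62, interval 0.38 to 0.86), and without its largest pair the ratio was 0.27. The study names Pax5 among promoters that lost interactions at 48h, with 0h as its baseline. Contacts listed at only 1 of the times 1h and 48h are not counted here. Pou2af1, the B cell coactivator OBF-1, had 17.3 ± 1.44 TPM at 1h and 2.47 ± 0.22 TPM at 48h (SD, n = 3) with a contact ratio of 0.52. The surrogate light chain gene Vpreb2 was listed at 0 TPM at 48h with 0.47. Contacts and RNA were both lower for Tcf3 (252 and 139 read pairs, contact log2 ratio -0.81, interval -1.12 to -0.51, RNA log2 fold change -2.69, scaled -1.64) and for Spib, an ETS factor of B cells (contact log2 ratio -0.69, which was -0.41 within GC deciles, and RNA -3.45, scaled -2.63).

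The interferon gamma list had 20 of 26 tested genes higher in RNA (25 after scaling) and none lower, and 16 genes with a median contact ratio of 0.13, 9 of them above 0. Of its guanylate-binding protein genes, Gbp2 and Gbp3 were past 1.5-fold higher. Gbp2 had 135 and 279 read pairs over 6 contacts (contact log2 ratio 1.09, interval 0.79 to 1.40) with 0.68, 0.88 and 0.53 TPM at 1h and 2.98, 4.47 and 2.42 TPM at 48h, and Gbp3 had 494 and 841 over 12 contacts (0.81, interval 0.65 to 0.98). All contacts of both were higher. Gbp2, Gbp3 and Gbp7 are neighbours on chromosome 3, between 142530342 and 142638008, so their ratios need not be independent. Gbp7 had 0.31 with 8 of 13 contacts higher, Gbp6 0.27 and Gbp5 0.21, which was 0.018 within GC deciles. The checkpoint ligand gene Cd274 had 0.31. Irgm1, Stat2 and the class II gene H2-Ab1 (-0.61) were past 1.5-fold lower, and Irf7, an interferon regulatory factor whose RNA was 0.39 ± 0.32 TPM at 1h and 126 ± 33.9 TPM at 48h (SD, n = 3), had -0.35 with an interval that spans 0 (-0.80 to 0.11).

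**Figure D5:**
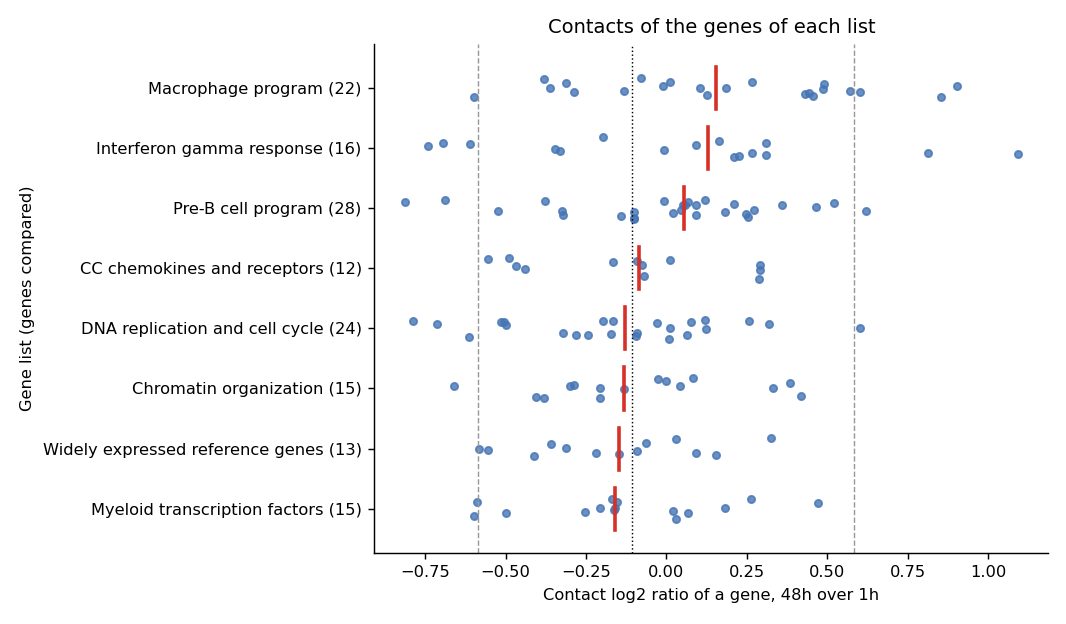
Contact log2 ratio, 48h over 1h, of the genes of 8 lists (number of genes compared in brackets). Each point is a gene with the contacts of its baits summed, the red bar is the median of the list, the dotted line the median of all genes tested (-0.11) and the dashed lines 1.5-fold. The medians lie between -0.16 (myeloid transcription factors) and 0.16 (macrophage list), an order of the lists that differs within GC deciles, where these medians are -0.01 and 0.09.

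The transcription factors of the myeloid lineage had a median contact ratio of -0.16 over 15 genes, with 6 above 0, and of -0.01 within GC deciles, while 13 of 23 tested genes were higher in RNA and 1 lower (18 and none after scaling). Cebpb, the C/EBP family member of activated macrophages (-0.60, 167 and 107 read pairs, but -0.33 within GC deciles), and the retinoic acid receptor gene Rara (-0.59, 371 and 239 read pairs, but -0.31 within GC deciles) were past 1.5-fold lower while their RNA was called higher. Spi1, which encodes PU.1, the factor shared by B cells and macrophages, had 30.5, 23.9 and 31.6 TPM at 1h and 23.6, 32.3 and 29.3 TPM at 48h, 2 groups that overlap, with a scaled log2 fold change of 1.05 (adjusted p = 0.00016 by limma). Its 4 contacts had 439 read pairs at 1h and 301 at 48h (contact log2 ratio -0.50, interval -0.72 to -0.28), a ratio of -0.25 within GC deciles. Klf6 had the highest contact ratio of this list, 0.47. Letters that match the binding motif of C/EBP factors (TTGCNNAA, both strands) were found 0.48 times per kb in the 1188 far fragments of pairs past 2-fold higher, 0.39 times in the 1499 of pairs past 2-fold lower and 0.42 times in all 35842, fragments whose median GC contents were 41.5%, 46.4% and 44.2%. A PU.1 motif (AGGAAGT) was found 0.27, 0.28 and 0.27 times and an AP-1 motif (TGANTCA) 0.33, 0.29 and 0.32 times per kb.

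The CC chemokine list had 9 of its 10 tested genes higher in RNA, and 12 genes with a median contact ratio of -0.08, of which none was past 1.5-fold. Ccl2, the main attractant of monocytes, had 0.90 ± 0.031 TPM at 1h and 52.7 ± 8.54 TPM at 48h (SD, n = 3) but 281 and 194 read pairs, with none of 8 contacts higher (contact log2 ratio -0.49, interval -0.76 to -0.22). Its neighbour Ccl7 was listed at 0 TPM at 1h and had 0.50, 1.40 and 0.56 TPM at 48h, with 146 and 173 read pairs (0.29, interval -0.04 to 0.62), which it shares with Ccl11 since both genes start in 1 bait. The bait of Ccl12 had no shared pair, with no pair listed at 1h and 15 at 48h. The receptor gene Ccr2 had 697 and 824 read pairs (0.29, interval 0.14 to 0.43), a ratio of -0.03 within GC deciles.

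Genes of DNA replication and the cell cycle, 39 of 44 lower in RNA (37 after scaling), had a median contact ratio of -0.13 over 24 genes, close to that of all genes. Aurkb, the kinase of the chromosomal passenger complex, was lowest (196 and 110 read pairs, contact log2 ratio -0.79) and had 13.4 ± 1.69 TPM at 1h and 0.55 ± 0.11 TPM at 48h (SD, n = 3). The inhibitor gene Cdkn1a was higher in RNA (4.64 ± 0.66 and 23.0 ± 1.33 TPM) and past 1.5-fold lower in contacts (-0.61). Btg1, an antiproliferative gene, was the only member past 1.5-fold higher: all 12 of its contacts were higher (132 and 194 read pairs, contact log2 ratio 0.60, interval 0.27 to 0.93), and its RNA was 5.82, 3.15 and 4.29 TPM at 1h and 20.5, 23.7 and 34.1 TPM at 48h (log2 fold change 2.54 ± 0.30 (SE), adjusted p = 2.4e-05 by limma, scaled 3.60). In the chromatin list, 29 of 37 genes were lower in RNA (17 after scaling), beside 38.3% of all genes tested (15.1% after scaling). The list had a median contact ratio of -0.13 over 15 genes. It ran from the cohesin release factor gene Wapl (-0.66, 93 and 57 read pairs) to Arid1a of the BAF remodelling complex (0.42), and Ezh2, the methyltransferase of Polycomb repressive complex 2, had 0.39 while its RNA was 32.8 ± 4.42 TPM at 1h and 3.08 ± 0.52 TPM at 48h (SD, n = 3). Suz12, another subunit of that complex, had 4 pairs at 1h, none at 48h and hence no shared pair. The 13 widely expressed reference genes had a median of -0.15, from -0.58 for Rpl13a to 0.33 for Rplp0, both genes of ribosomal proteins with similar copies elsewhere in the genome. Of the 18 genes of the reference list tested for RNA, 12 were called lower and 1 higher (5 and 4 after scaling).

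Of the other genes singled out for their contacts in the study, Clcf1 and Maf1 were followed here, and Ssbp1 was not. Clcf1, a cytokine of the interleukin 6 family that acts on B cells, had 16 shared contacts from 2 baits, none higher. It had 1153 read pairs at 1h and 778 at 48h (contact log2 ratio -0.52, interval -0.66 to -0.39). Its RNA was 0.83, 1.28 and 0.96 TPM at 1h and 0.50, 0.69 and 1.59 TPM at 48h, 2 groups that overlap (log2 fold change -0.25, scaled 0.70). The contacts of Clcf1 had a ratio of -0.25 within GC deciles. Maf1, a repressor of RNA polymerase III, had 159 and 130 read pairs over 5 contacts (-0.25, interval -0.59 to 0.10) and RNA of 9.65, 6.92 and 10.9 TPM at 1h and 2.91, 4.22 and 5.97 TPM at 48h, where the scaled log2 fold change was -0.03. The study names Maf1 and Ssbp1 among promoters that gained contacts with regions of a repressive histone mark while their RNA fell. Its baseline was 0h, and contacts listed at only 1 of the times 1h and 48h are not counted here. Within GC deciles the contact ratio of Maf1 was -0.04. Other genes named above whose contact ratio also moved by more than 1.5 times within GC deciles were Ccne2 (-0.44), Vsir (-0.39), Rpl13a (-0.34), Plaur (-0.20), Irf7 (-0.12), Ezh2 (0.22), Klf6 (0.29) and Pou2af1 (0.32).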

How the data were processed

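RNA-seq of 12 libraries and PCHi-C lists of the 1h, 12h and 48h time points were used. Per the labels and the study's methods, the authors trimmed RNA reads (Trim Galore 0.6.2), mapped them (HISAT2 2.1.0) to mm10 and deposited TPM from RSEM, in which depth is unknown. For PCHi-C the authors mapped read pairs to mm10 with HiCUP, which removes duplicates, merged 2 replicates per time point and called interactions with CHiCAGO at a score of at least 5. The lists of 1h, 12h and 48h, as deposited, carry an integer for each pair, read here as read-pair counts because these fall with distance and are equal in both directions for 8082 of 8082 bait-to-bait pairs at 1h and 8515 of 8517 at 48h. Which unit they are in is not stated in the sources used here. In the deposited 0h list the values are CHiCAGO scores, and it served only to say which pairs were listed. A pair is in a list only where its score passed, so contacts lost or gained entirely are not among those compared.

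Counts were divided by their totals over shared pairs. Pairs needed 20 read pairs, baits 3 pairs and 100 read pairs. Start sites are those of GENCODE M21, and base composition was read from GRCm38.p6, where 100% of 56878 fragments begin at a HindIII cut. RNA was tested with limma 3.58.1 in R 4.3.3 on log2(TPM + 0.1) for genes whose mean over all libraries reached 0.1 TPM, with 4 time points in 1 model and a mean-variance trend. Fold changes on this scale understate those of low genes. The labels call the replicates biological, and p-values measure the spread between these libraries. Python 3.11.15 with pandas 2.3.3, scipy 1.17.1 and numpy 2.4.6 did the rest.

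Genes named are 7 of those that the study's text names for their contacts (Ssbp1 was not among them), the 10 baits and 5 pairs at either end, the 5 genes with the largest RNA change in each direction among genes with contacts past 1.5-fold (mean TPM of at least 1, no overlap of libraries) and the 4 genes at either end of each list. The contacts and lists were chosen with earlier results of these data known. Alternatives varied scaling, minimum counts, fold thresholds, pairs of baits, the largest pair, pseudocount, filter, trend, libraries and the replicate block. Hi-C libraries were not used here.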

Additional observations from a re-analysis of the deposited data

How the results depend on the processing

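Scaling to whole lists gave log2 ratios of shares of 0.10 under 25 kb, -0.060 at 25-50 kb, -0.12 at 50-100 kb, -0.21 at 100-200 kb, -0.24 at 200-500 kb, -0.074 at 500-1000 kb, -0.00087 at 1-2 Mb and 0.14 between chromosomes, and 212 higher and 892 lower baits. Scaling within GC deciles, chosen after seeing the data, gave 0.17, 0.056, 0.0028, -0.10, -0.17, -0.044, -0.012 and 0.12 for the same bands and 293 lower baits, and together with distance bands 1295 lower pairs and 195 lower baits. Without pairs of baits there were 1693 lower pairs and 306 lower baits, and the ratio at 100-200 kb was -0.11. Distance between nearest ends gave 0.18 under 25 kb and -0.038 at 50-100 kb. Scaling within distance bands left 1580 lower pairs. Centring on the median pair gave 2259 higher and 1439 lower pairs, 582 higher and 225 lower baits, and medians of 0.011, 0.0023 and 0.037 for baits with RNA higher, lower and not called. A minimum of 50 read pairs gave 820 higher and 528 lower pairs, and 1.5-fold 6118 and 11479. At 2-fold 35 baits were higher and 20 lower, and without the largest pair of each bait 176 were higher.

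For RNA, a pseudocount of 1 gave 668 higher and 3804 lower genes, a mean TPM of at least 1 gave 681 higher, a log2 fold change beyond 2 gave 636 and 2593, and median-of-ratios scaling 2551 and 2440. Leaving out 1 replicate gave between 1041 and 1142 higher and between 5657 and 6317 lower. The replicate block gave 1134 higher and 6334 lower, but the numbers were not taken to pair samples: deviations of equal numbers correlated at 0.09, 0.06 and 0.21.

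Signs turned under median-of-ratios scaling for Spi1 (1.05), Cdkn1b (0.86), Tmem259 (0.23), Calm3 (0.031), Dnmt3a (0.40), Nipbl (0.69), Ywhaz (0.24), Clcf1 (0.70), Wapl (0.10) and Gapdh (0.39), none of which was called on both scales with opposite signs. Without 1 replicate the values ran from -0.14 to 0.11 for Spi1, from -0.46 to 0.043 for Cdkn1b and from -0.69 to 0.060 for Clcf1, none of them called on deposited TPM. Of the 33 named genes with contacts past 1.5-fold, 12 were past it within GC deciles and 26 without their largest pair, and none had the other sign within GC deciles. The cause of these differences was not tested. With 1 merged list per time point, contact differences carry counting error only, and at 20 read pairs a 2-fold difference can lie within it.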
